A study of Rattus norvegicus with 18 samples.

Results

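The growth hormone axis was followed through 5 genes across 3 rat brain regions: growth hormone itself (Gh1), its receptor (Ghr), the growth hormone target and feedback inhibitor Socs2, insulin-like growth factor 1 (Igf1) and the receptor for that factor (Igf1r). Members were all probe sets whose single gene symbol in the platform's annotation was 1 of these 5, which gave 9 of the 31099 probe sets on the array and 5 of the 14218 named genes. Gh1 and Socs2 had 1 probe set each, Ghr and Igf1r had 2 each and Igf1 had 3. Gh1 was chosen by its measured difference between stressed and handled rats, which ran in opposite directions in amygdala and hippocampus. Those differences are therefore given as a description, with no test, and the same holds for every contrast that contains the arrays they came from. The other 4 genes were chosen for their place in the pathway, with earlier results of these data already known. Total RNA had been hybridised to 18 expression arrays, 3 for each of 6 groups: amygdala, hippocampus and cortex of rats given chronic immobilization stress, and the same regions of control rats that were handled without stress. The labels give neither the strain, sex and age of the rats nor the length of the stress. In every group the sample titles end in e1_le1, e1_le2 and e1_le3, and the meaning of these endings is not given. The replicates are thus told apart only by the last number, while e1 is shared by all. The p-values measure how far these arrays scatter, and that scatter may be technical. Whether the 3 regions came from the same animals is not given either. A further label field names the amygdala for all 18 arrays. Of the region markers on the handled arrays, 9 of 9 neocortical genes were higher in cortex than in hippocampus on all arrays, 6 of 9 were higher in cortex than in amygdala, 5 of 7 amygdala genes were higher in amygdala than in hippocampus and 4 of 7 higher than in cortex. The hippocampal list was less clear, with 4 of 8 genes higher and 2 lower in hippocampus than in each other region. The share of all probe sets so arranged was not counted. Differences between handled regions were common: limma put 14.7% of tested probe sets under an adjusted p of 0.05 for amygdala against cortex. The share was 25.9% for hippocampus against cortex and 28.4% for amygdala against hippocampus.

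Growth hormone is made chiefly by somatotroph cells of the anterior pituitary, where hypothalamic growth hormone-releasing hormone raises its release and somatostatin lowers it. Transcripts and protein are also found in the brain, including the hippocampus and amygdala. The hormone binds its receptor, which signals through the kinase JAK2 and the transcription factor STAT5. STAT5 raises transcription of Igf1 and of SOCS-family genes such as Socs2, whose protein damps signalling at the receptor. Igf1 acts on Igf1r, a receptor tyrosine kinase that feeds the PI3 kinase and MAP kinase pathways, and its access to the receptor is set by a family of binding proteins.

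The authors' values are linear intensities. Array medians lay between 49.1 and 56.4, and the highest value on any array was 20582. Changes are differences of log2(intensity + 16), with limma's standard error, and a difference was called at a Benjamini-Hochberg adjusted p under 0.05 over the 18625 probe sets that passed a filter on mean level (an intensity of 30.1 on that scale). Of the 9 member probe sets 5 passed: that of Gh1, 2 of Igf1 and both of Igf1r. Neither probe set of Ghr nor that of Socs2 did, so their changes come from the same fit without the filter, over 31042 probe sets. In whole tissue, fewer cells of a type and less RNA per cell cannot be told apart.

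Gh1 (Entrez gene 24391, probe set 1370841_a_at) encodes growth hormone. It was higher on the stress than on the handled arrays of the amygdala and lower on those of the hippocampus, with little difference in the cortex. In the amygdala its intensity was 103, 99.1 and 73.6 on the handled arrays and 196, 230 and 202 on the stress arrays. The groups were far apart, with every stress array above every handled array, and the mean went from 91.9 ± 15.9 to 209 ± 18.2 (SD, n = 3), a ratio of 2.28. In the hippocampus the handled arrays read 141, 106 and 118 and the stress arrays 40.6, 54.0 and 52.0. There every stress array lay below every handled array, and the mean went from 122 ± 17.7 to 48.8 ± 7.22, so that handled was 2.50 times stress. The cortex arrays read 46.5, 29.7 and 53.8 when handled and 40.8, 35.0 and 28.5 under stress. These 2 cortical groups overlapped, and their log2 difference of -0.21 ± 0.17 was not called (limma, adjusted p = 0.73).

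**Figure D1:**
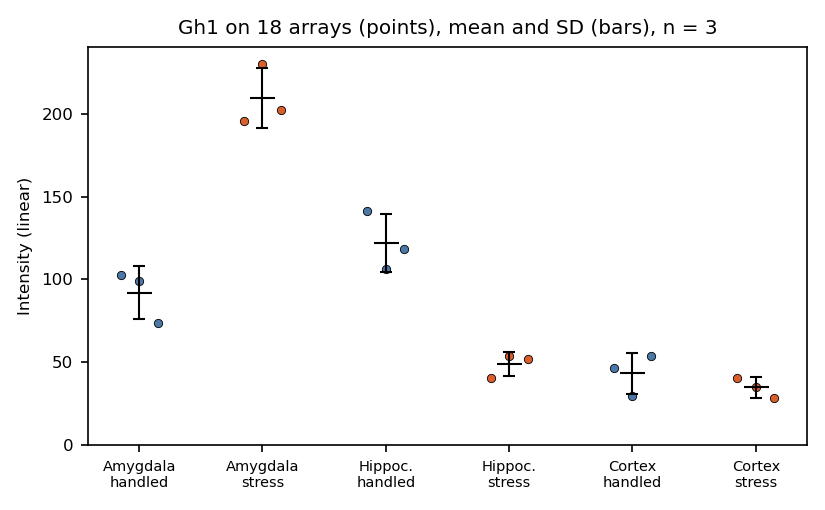
Linear intensity of the Gh1 probe set on each of the 18 arrays (points; blue handled, orange stress), by region and treatment, with the group mean and SD (n = 3). The amygdala stress arrays, at 196 to 230, are the highest of all, and the hippocampus stress arrays, at 40.6 to 54.0, overlap the cortex arrays.

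On the log2 scale the difference was 1.07 ± 0.17 in the amygdala and -1.09 ± 0.17 in the hippocampus. The distance between these regional effects was 2.16 ± 0.24, and the average over the 3 regions was -0.08 ± 0.10. Leaving out any 1 array kept the amygdala value between 0.94 and 1.15 and the hippocampus value between -1.17 and -0.99. As background, 7.46% of all probe sets had all stress arrays above all handled arrays in the amygdala, and 6.72% had all of them below in the hippocampus. Since Gh1 was picked for this pattern, nothing is read from its place among them.

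Ordered by mean level, Gh1 ran from the stressed amygdala through the handled hippocampus, the handled amygdala, the stressed hippocampus and the handled cortex to the stressed cortex. The first 3 groups were each apart from the next, although the handled hippocampus and handled amygdala arrays were separated by a gap of only 3.53 units. Among the last 3 groups, the stressed hippocampus overlapped the handled cortex and the handled cortex the stressed cortex. On the handled arrays Gh1 was above its cortical level by 0.87 ± 0.17 in the amygdala and by 1.23 ± 0.17 in the hippocampus (log2), and it was 0.36 ± 0.17 higher in hippocampus than in amygdala. These handled arrays also entered the differences for which Gh1 was picked, so no test is given for them either.

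Because growth hormone is a pituitary product, other pituitary transcripts were read beside it. Of 14 pituitary markers 12 were on the array and 2 passed the filter. In the amygdala 3 of the 12, all of them hormone genes, had every stress array above every handled array, against 7.46% of probe sets. None had every one below, against 6.8%, and in the hippocampus the counts were 0 and 0. The change was above 0 for 7 of the 12 in amygdala (median 0.11) and for 7 in hippocampus (median 0.10). Prl, which encodes prolactin and is the closest relative of Gh1 on the list, read 28.2, 5.09 and 41.9 on the handled amygdala arrays and 68.1, 66.3 and 83.5 on the stress arrays. Prl was thus higher on all stressed amygdala arrays, like Gh1, but its change of 1.23 ± 0.35 was not called in the fit without a filter (adjusted p = 0.115). Cga, which encodes the common subunit of the pituitary glycoprotein hormones, read 17.3, 4.89 and 19.6 when handled and 48.7, 29.7 and 45.9 under stress. Lhb, the luteinizing hormone subunit, read 51.7, 39.9 and 48.9 and then 85.6, 57.9 and 53.3. In the hippocampus, where Gh1 was lower under stress, Prl read 43.7, 49.8 and 32.2 on the handled arrays and 45.9, 5.88 and 23.2 on the stress arrays. Those groups overlapped (-0.61 ± 0.35, adjusted p = 0.62). Over 6 pituitary hormone genes the summed intensity was 96.4 to 169 in the handled and 195 to 301 in the stressed amygdala, and 113 to 163 in the handled and 114 to 148 in the stressed hippocampus. Summed over the whole list the amygdala ranges overlapped, at 628 to 822 handled and 667 to 836 under stress, because Chga, which neurons also express, made up most of the sum. Without Chga the 11 other markers summed to 199 to 231 handled and 243 to 374 under stress in amygdala. That is a narrower gap than for the 6 hormone genes. In hippocampus the 11 summed to 190 to 271 and 196 to 236. Pou1f1, the transcription factor that defines the cells making growth hormone and prolactin, lay near the bottom of the scale, between 0.94 and 9.08 on the handled and 1.53 and 3.27 on the stressed amygdala arrays. Ghrhr, the receptor for growth hormone-releasing hormone, had amygdala means of 37.2 ± 15.7 handled and 29.1 ± 10.2 under stress. Tbx19, also on the list, had 19.8 ± 9.08 and 13.4 ± 5.26. The part of pituitary transcripts in the Gh1 difference was not tested.

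**Figure D2:**
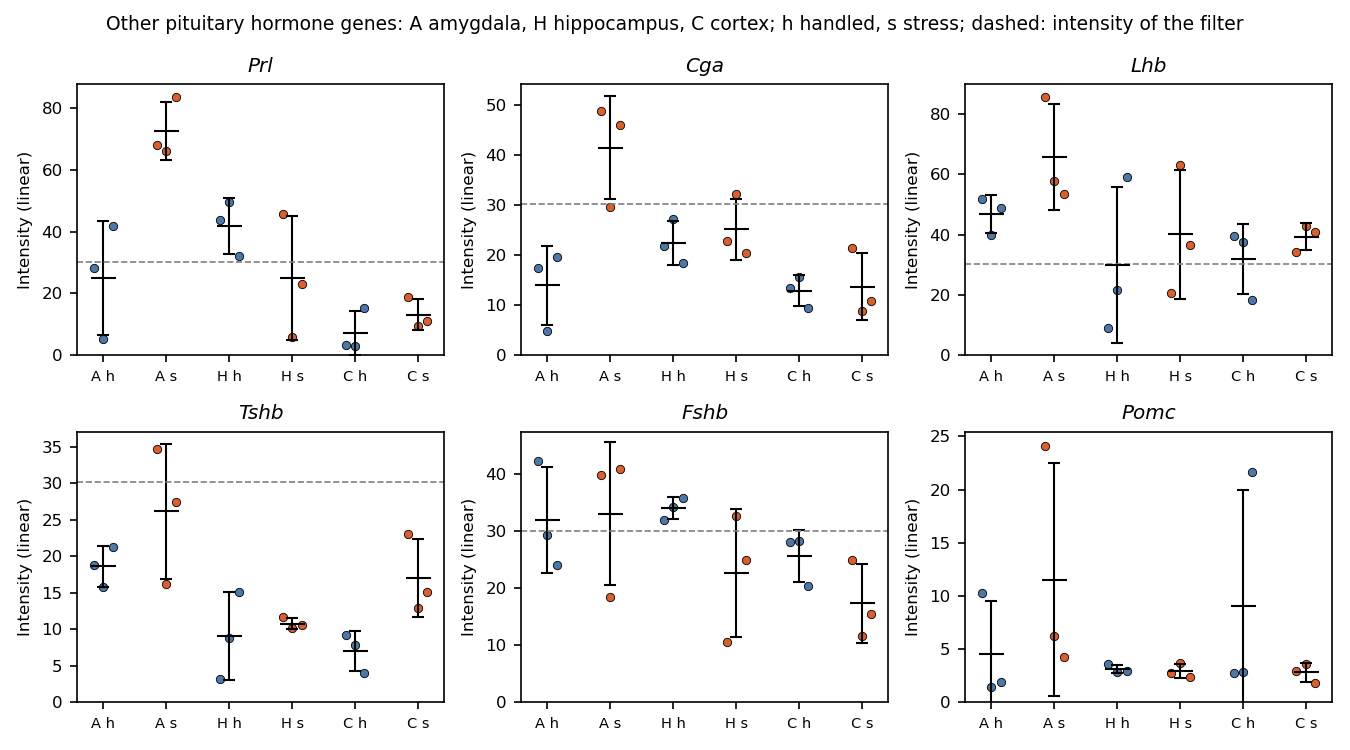
Linear intensity of 6 other pituitary hormone genes on each array (points; blue handled, orange stress), by region (A amygdala, H hippocampus, C cortex) and treatment (h handled, s stress), with the mean and SD (n = 3) and the intensity of the filter as a dashed line. Prl is highest on the stressed amygdala arrays, and in the hippocampus the handled and stressed arrays overlap for Prl, Cga and Lhb.

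Markers of striatal neurons, whose tissue borders the amygdala, also differed between the amygdala groups. Of 11 on the array, 7 had every stressed amygdala array above every handled one, against 7.46% of all probe sets. Of the 11, 2 were called higher, where 2.4% of probe sets were called. The summed intensity of the 11 was 2397 to 2565 handled and 2848 to 3321 under stress. Drd2, the D2 dopamine receptor, read 53.5, 52.6 and 51.5 on the handled and 80.4, 96.4 and 77.9 on the stressed amygdala arrays. In the hippocampus the striatal sum was 1787 to 1999 handled and 1621 to 1754 under stress. There 1 marker, Rasd2, was lower on all stress arrays, as were 6.72% of all probe sets. In the amygdala, sums of further lists also rose without overlap. Amygdala markers summed to 3933 to 4169 handled and 4322 to 4645 under stress, and neocortical markers to 4033 to 4281 and 4316 to 4603. Hippocampal markers gave 2040 to 2164 and 2255 to 2456, and choroid plexus and ependyma markers 758 to 805 and 922 to 998. Blood markers fell, from 2075 to 2304 down to 1526 to 1827, and the sums of the remaining lists overlapped. An index of RNA quality moved in the amygdala as well: the log2 distance between the 3′ and 5′ hexokinase controls was 0.91 ± 0.08 handled and 1.40 ± 0.07 under stress (SD, n = 3). In the amygdala the same distance was 0.45 ± 0.04 and 0.45 ± 0.08 for GAPDH, and 2.08 ± 0.08 and 2.16 ± 0.24 for beta-actin. The hexokinase distance was 1.12 ± 0.12 handled and 1.30 ± 0.18 under stress in hippocampus, and 1.21 ± 0.11 and 1.38 ± 0.13 in cortex. The part of these markers and of RNA quality in the Gh1 difference was not tested.

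Ghr, the growth hormone receptor, was dim everywhere and no change of it was called. For probe set 1368924_at the amygdala arrays read 19.7, 29.6 and 22.7 when handled and 14, 16.5 and 16.3 under stress. The 3 stress arrays lay below the 3 handled ones, against 6.8% of all probe sets in that region, but the change of -0.33 ± 0.21 was not called (adjusted p = 0.60). Its means were 28.7 ± 2.58 and 33.8 ± 2.89 in the handled and stressed hippocampus and 25.4 ± 6.28 and 23.4 ± 9.04 in the cortex, with overlap in both. The second probe set, 1373803_a_at, had group means between 17.6 and 20.7, overlapped in all 3 regions, and so did not repeat the amygdala difference. No neighbouring groups in the order of Ghr levels were separated for either probe set.

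Socs2, an early transcriptional target of STAT5 and an inhibitor of growth hormone receptor signalling, was lower on the stress arrays of both amygdala and hippocampus. Its probe set (1369577_at) read 20.8, 13.0 and 17.0 on the handled and 5.43, 7 and 4.45 on the stressed amygdala arrays. In the hippocampus it read 23.8, 59.2 and 54.2 when handled and 15, 7.01 and 2.33 under stress. Neither pair of groups overlapped, against 6.8% and 6.72% of all probe sets with all stress arrays lower in these regions. The stress arrays lay near the bottom of the scale, so no ratio is given. In the cortex the means were 32.3 ± 3.76 and 26.8 ± 8.94, with overlap. Without the filter the hippocampus change of -1.33 ± 0.26 was called (adjusted p = 0.0313), as was the average over regions of -0.71 ± 0.15 (adjusted p = 0.0111), where 0.18% and 2.22% of probe sets were called. The amygdala change of -0.60 ± 0.26 was not called (adjusted p = 0.37, with 1.15% of probe sets called), nor was the cortex change of -0.19 ± 0.26 (0.155% called). The difference between the amygdala and hippocampus effects, 0.73 ± 0.36, was not called (adjusted p = 0.65, with 0.00966% called). Both calls rest on a probe set whose mean lay below the filter. Of 9 oligodendrocyte markers 6 also had every stressed hippocampus array below every handled one, against 6.72% of all probe sets. None of the 9 had a change above 0 and 1 was called lower, where 0.36% were called with the filter. Their summed intensity was 20339 to 22857 in the handled and 17343 to 19741 in the stressed hippocampus, with a median change of -0.22. Choroid plexus and ependyma markers ran the other way there, with 2 of 9 called higher and sums of 1411 to 1570 handled and 3733 to 3961 under stress. Meningeal fibroblast markers fell in hippocampus, with sums of 1930 to 2113 handled and 1633 to 1688 under stress and 1 of 12 called lower. Endothelial and mural markers summed to 1295 to 1412 and 1204 to 1275, with 0 of 10 called. The part of these cell types in the hippocampal differences of Gh1 and Socs2 was not tested. Where Gh1 differed in opposite directions, Socs2 was therefore on the lower side under stress in both regions. Among the handled arrays Socs2 was lower in amygdala than in hippocampus by 0.86 on the log2 scale, a difference of -0.86 ± 0.26 (adjusted p = 0.0235 without the filter, where 16.3% of probe sets were called).

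Igf1, the growth factor through which much of growth hormone action runs, showed no called change with stress in any region. With limma, 0 of the 4 tested member probe sets of Igf1 and Igf1r were called in any of the 3 regional stress contrasts, where 2.4% of probe sets were called in amygdala, 0.36% in hippocampus and 0.403% in cortex, and 0 of 4 had an unadjusted p under 0.05, where 13.7%, 10.9% and 10.2% of probe sets did. Probe set 1370333_a_at went from 63.0 ± 9.04 to 60.4 ± 24.7 in amygdala, from 50.9 ± 26.2 to 41.0 ± 16.8 in hippocampus and from 85.1 ± 15.1 to 76.8 ± 6.05 in cortex. Its log2 changes were -0.10, -0.19 and -0.11, each ± 0.27, with all groups overlapping. Probe set 1388469_at read 43.3, 49.1 and 54.5 on the handled and 8.80, 44.0 and 54.7 on the stressed amygdala arrays, so that its change of -0.46 ± 0.25 (adjusted p = 0.45) leaned on 1 low array. It went from 43.8 ± 6.41 to 35.3 ± 4.16 in hippocampus and from 65.6 ± 2.11 to 58.4 ± 8.53 in cortex. The third probe set, 1382599_at, lay below the filter and ran the other way: it read 9.79, 8.04 and 14.4 on the handled and 23.9, 24.4 and 18.4 on the stressed amygdala arrays. Its stress arrays were also all higher in the cortex, at 27.5, 26.6 and 18.5 against 10.8, 17.4 and 12.8, where 8.78% of all probe sets were so arranged. Neither change was called (0.52 ± 0.21, adjusted p = 0.34, and 0.44 ± 0.21, adjusted p = 0.67). The 3 probe sets of Igf1 thus disagreed in sign in those 2 regions. Between regions of handled rats no Igf1 difference was called. The largest was hippocampus minus cortex for 1370333_a_at (-0.67 ± 0.27, adjusted p = 0.0734), which passed without hippocampus handled replicate 2 (-0.92, adjusted p = 0.0213) and without amygdala stress replicate 3 (adjusted p = 0.0496). For 1388469_at the same difference was -0.45 ± 0.25 (adjusted p = 0.22), and it passed without amygdala stress replicate 1, the low array named above (adjusted p = 0.0369).

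Igf1r, the receptor for Igf1, differed between regions and was not called with stress. Probe set 1392492_at read 403, 358 and 356 on the handled amygdala arrays, 453, 373 and 410 on the handled hippocampus arrays and 550, 525 and 529 on the handled cortex arrays. The cortex arrays were above all others, and the level was lower than in cortex by 0.51 on the log2 scale in amygdala (-0.51 ± 0.11, adjusted p = 0.0021) and in hippocampus (-0.37 ± 0.11, adjusted p = 0.0135). The second call was lost without hippocampus handled replicate 2 (-0.30, adjusted p = 0.0759), without cortex handled replicate 1 (-0.35, adjusted p = 0.0509) and in the mean over both probe sets (-0.26, adjusted p = 0.0678). The other probe set, 1368123_at, was lower in amygdala than in cortex (-0.42 ± 0.14, adjusted p = 0.0385), a call lost when any of 4 arrays was left out (adjusted p of 0.0736 to 0.181: amygdala handled replicates 2 and 3, cortex handled replicates 1 and 2) and without the filter (adjusted p = 0.0655). It was not called for hippocampus against cortex (-0.15 ± 0.14, adjusted p = 0.46). Amygdala and hippocampus were not called apart by either. These region contrasts called 14.7% of all probe sets for amygdala against cortex and 25.9% for hippocampus against cortex, so a called gene among them is common. With stress, 1392492_at changed by 0.08, 0.10 and -0.06 in amygdala, hippocampus and cortex, each ± 0.11, with overlapping groups. For 1368123_at the stressed amygdala arrays, at 108, 99.96 and 99.4, were above the handled ones, at 98.8, 85.1 and 87.6, by a gap of 0.62 units, an order that 7.46% of all probe sets showed (0.15 ± 0.14, adjusted p = 0.68).

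**Figure D3:**
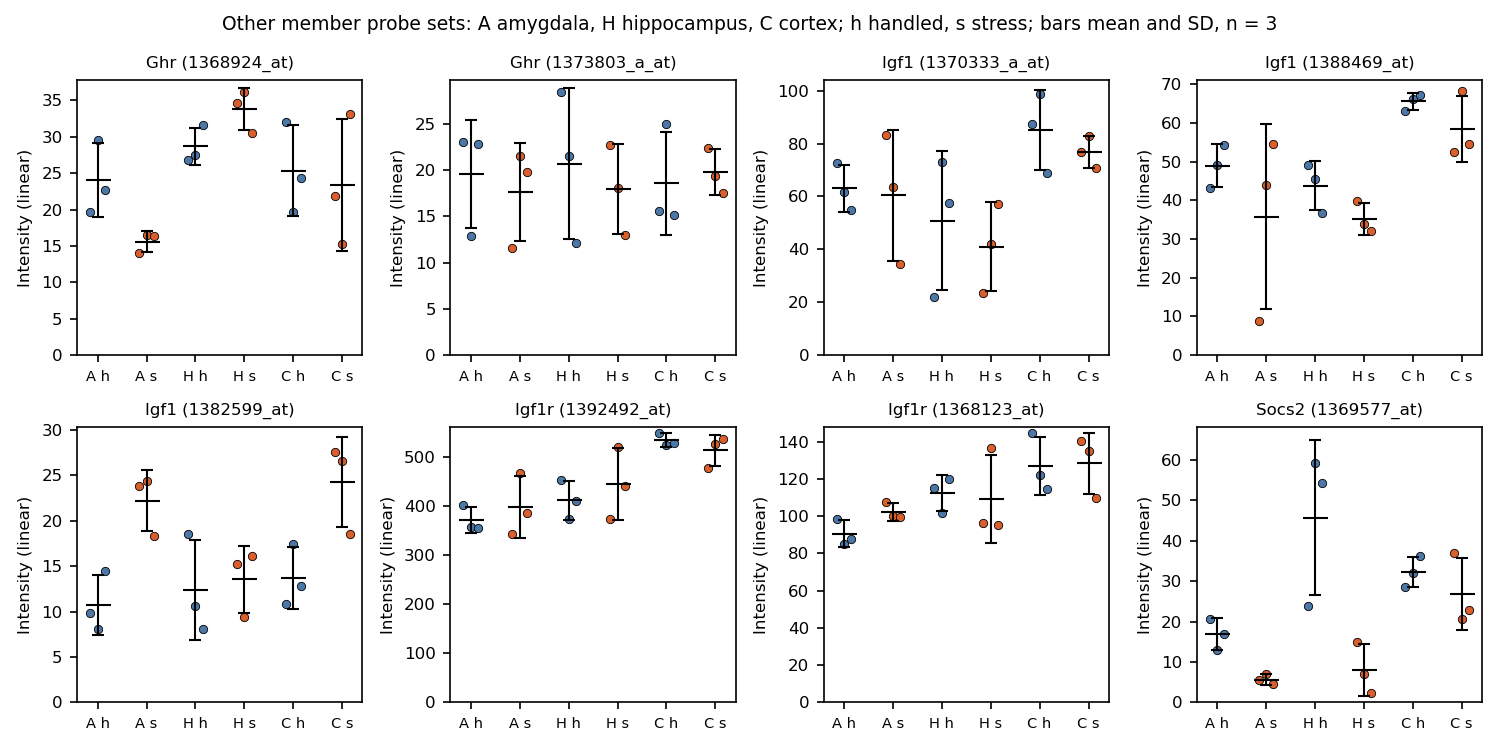
Linear intensity of the 8 member probe sets other than that of Gh1 on each array (points; blue handled, orange stress), by region (A amygdala, H hippocampus, C cortex) and treatment (h handled, s stress), with the mean and SD (n = 3) and an axis of its own for each probe set. Socs2 is low on the stressed amygdala and hippocampus arrays, Igf1r is highest in cortex, and the probe sets of Ghr and of Igf1 differ among themselves.

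Over the 18 arrays, which share the regions and treatments, Gh1 correlated with Igf1r at r = -0.58 (1392492_at) and r = -0.41 (1368123_at), and with Socs2 at r = -0.29. Once the 6 group means were removed these became 0.47, 0.37 and -0.23, so the negative values for Igf1r came from the group levels and not from arrays within a group. The 2 probe sets of Igf1r followed each other (r = 0.74), whereas those of Ghr (r = -0.17) and the 2 tested ones of Igf1 (r = 0.09) did not.

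The rest of the pathway was read from lists by role: 91 genes, of which 76 were on the array and 52 passed the filter. In the amygdala 1 of 52 was called (Grb2, higher), in the hippocampus 0 and in the cortex 2 (Igf2 and Igfbp2, both lower), beside 2.4%, 0.36% and 0.403% of all probe sets. The amygdala and hippocampus counts are near those shares and are no result about the pathway. At an unadjusted p under 0.05 limma gave 10, 10 and 11 of the 52 (19.2%, 19.2% and 21.2%), beside 13.7%, 10.9% and 10.2% of all probe sets. For the amygdala minus hippocampus difference, the pattern for which Gh1 was picked, 0 of the 52 were called and 5 had an unadjusted p under 0.05, beside 0.0483% and 8.06% of all probe sets. The median change of the 52 genes was 0.00 in amygdala, 0.01 in hippocampus and -0.02 in cortex, against 0.01, 0.00 and 0.00 for all probe sets.

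By role, none of 5 regulators of growth hormone release (such as somatostatin, Sst, and its receptors Sstr1 to Sstr3), of 10 genes of growth hormone receptor signalling (such as Stat3 and the phosphatases Ptpn1 and Ptpn11) or of 4 feedback inhibitors and targets (such as Socs5 and Bcl6) was called with stress by limma in any region. Their list medians lay between -0.03 and 0.16. The 4 tested ligands and receptors of the insulin family included Igf2, and the 8 tested binding proteins and their proteases included Igfbp2. Of these 8, 7 were below 0 in hippocampus and 7 in cortex (medians -0.12 and -0.24), and 4 in amygdala (median 0.00). Of 21 genes below Igf1r only Grb2 was called in a regional stress contrast. The remaining family list, prolactin and its relatives and receptor, had 4 genes on the array and none past the filter.

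**Figure D4:**
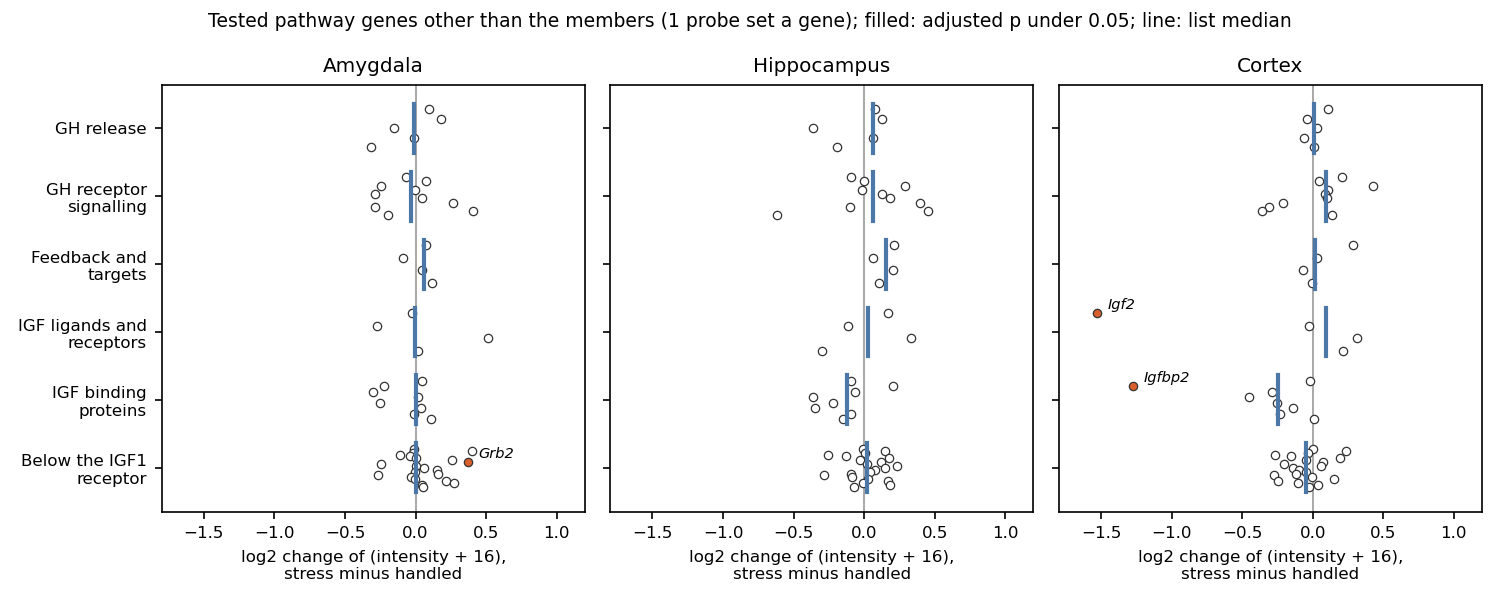
Change with stress (log2 of intensity + 16, stress minus handled; x axis) of the tested pathway genes other than the 5 members, 1 probe set a gene, by list (rows) and region (panels); filled points are called at an adjusted p under 0.05 and the blue line is the list's median. Only Grb2 in amygdala and Igf2 and Igfbp2 in cortex are filled, the latter 2 at -1.53 and -1.28, while the other points lie nearer to 0.

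Igf2 and Igfbp2 fell in the stressed cortex. Igf2, the second insulin-like growth factor, read 419, 414 and 465 on the handled cortex arrays and 110, 175 and 140 on the stress arrays (-1.53 ± 0.12, adjusted p = 2.1e-07). Igfbp2, a binding protein for both factors, went from 357 ± 24.6 to 139 ± 24.1 (-1.28 ± 0.12, adjusted p = 3.3e-06). Neither was called in amygdala (-0.03 and -0.23, each ± 0.12) or hippocampus (0.17 and 0.21, each ± 0.12). The differences between regions were called themselves: amygdala minus cortex was 1.5 ± 0.18 for Igf2 and 1.05 ± 0.18 for Igfbp2, and hippocampus minus cortex 1.69 ± 0.18 and 1.48 ± 0.18, contrasts that share the cortex arrays and called 0.129% and 0.0859% of probe sets. The 3 dimmer Igf2 probe sets did not follow in cortex, at 0.00, 0.21 and -0.10. Both genes are known to be high in the meninges. Of 12 meningeal fibroblast markers 0 had a change above 0 in cortex, with a median of -0.82. Of these markers 5 were called lower, where 0.403% of probe sets were called. Their summed intensity was 4354 to 4525 in the handled and 1965 to 2078 in the stressed cortex. Endothelial and mural markers were also lower in the stressed cortex, with sums of 1627 to 1755 handled and 1367 to 1422 under stress. Of these 10 markers 0 were called. The part of meningeal or vascular tissue in the Igf2 and Igfbp2 changes was not tested.

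Averaged over the regions, 4 of the 52 pathway genes (7.69%) were called lower and none higher, where 4.66% of probe sets were called. That count is near the share and is no result about the pathway. Beside Igf2 (-0.46 ± 0.07) and Igfbp2 (-0.43 ± 0.07), which the cortex carried, these were Igfbp5 and Pik3r1. Igfbp5, a binding protein of the extracellular matrix, changed by -0.24 ± 0.06 (adjusted p = 0.0109), from 305 ± 18.4 to 255 ± 33.1 in amygdala, 239 ± 2.13 to 203 ± 8.65 in hippocampus and 232 ± 16 to 192 ± 16.9 in cortex. A second of its probe sets fell by 0.60 on the log2 scale (-0.60 ± 0.12, adjusted p = 0.0039), but the mean over its 5 probe sets was not called (-0.22, adjusted p = 0.136). Pik3r1, the regulatory subunit of PI3 kinase, changed by -0.27 ± 0.06 (adjusted p = 0.0127), with -0.27, -0.28 and -0.27 in the 3 regions. Grb2, an adaptor that links receptors to the MAP kinase pathway, rose in the amygdala from 787 ± 31.8 to 1023 ± 18 (0.37 ± 0.10, adjusted p = 0.0412). Another Grb2 probe set past the filter was at -0.09 ± 0.09, and the call was lost in 14 of 29 alternatives, with adjusted p from 0.0133 to 0.295 over all of them: leaving out any amygdala array, any handled cortex array or stressed cortex replicate 1 gave 0.0502 to 0.163.

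Between regions of handled rats, for amygdala against cortex 6 of the 52 genes were called higher and 10 lower, for hippocampus against cortex 7 and 16, and for amygdala against hippocampus 14 and 7, beside 14.7%, 25.9% and 28.4% of all probe sets. Among the 5 tested regulators of growth hormone release 1, 3 and 4 were called in these contrasts. Sst, which encodes somatostatin, read 975, 925 and 884 in amygdala, 310, 372 and 393 in hippocampus and 1001, 855 and 904 in cortex. The hippocampus was apart from both other regions (against cortex -1.33 ± 0.10, adjusted p = 1.4e-10). Sstr1, a somatostatin receptor, followed with 239 ± 28.8 in amygdala, 79.4 ± 8.01 in hippocampus and 409 ± 45.1 in cortex (hippocampus minus cortex -2.15 ± 0.11, and -1.07 in the mean over its probe sets), whereas Sstr3 was higher in hippocampus than in cortex (0.73 ± 0.14). Sstr2 was higher in amygdala than in hippocampus (0.69 ± 0.19), a call lost without hippocampus handled replicate 3 (0.47, adjusted p = 0.0631).

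Among genes of receptor signalling and feedback, Bcl6, a transcriptional repressor that STAT5 lowers, was lower in handled amygdala than in cortex (-0.90 ± 0.12) and hippocampus (-1.08 ± 0.12). Stat3 was higher in amygdala than in hippocampus (0.44 ± 0.12), a call lost without amygdala handled replicate 1 (adjusted p = 0.0574). Ptpn1 was higher in amygdala (0.68 ± 0.21) and hippocampus (0.62 ± 0.21) than in cortex. Both Ptpn1 calls leaned on cortex handled replicate 1, without which they were 0.30 (adjusted p = 0.223) and 0.24 (adjusted p = 0.28), and the hippocampus call was lost without hippocampus handled replicate 2 (0.50, adjusted p = 0.13). The amygdala call was lost without amygdala handled replicate 2 (0.62, adjusted p = 0.099) and without replicate 3 (0.66, adjusted p = 0.0794). In all, the amygdala call was lost in 6 and the hippocampus call in 5 of 29 alternatives, among them no filter, no variance trend and the arrays of the contrast alone.

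Among ligands and binding proteins, Igfbp2 (-1.74 ± 0.12 and -1.23 ± 0.12) and Igf2 (-1.42 ± 0.12 and -1.22 ± 0.12) were lower in amygdala and in hippocampus than in cortex, beside the high meningeal sums of the handled cortex. Igfbp2 was also lower in amygdala than in hippocampus (-0.50 ± 0.12). Stc1, an inhibitor of binding protein proteolysis, was higher than in cortex in amygdala (0.74 ± 0.16) and hippocampus (0.58 ± 0.16), or 0.43 and 0.33 with an offset of 64. Igf2r, which clears Igf2, was higher in hippocampus than in cortex (0.42 ± 0.11), as was the protease Htra1 (0.29 ± 0.08), whose call was lost without cortex handled replicate 2 (0.22, adjusted p = 0.0509). Igfbp5 was higher in amygdala than in cortex (0.37 ± 0.10), a call lost without cortex handled replicate 1 (0.32, adjusted p = 0.0582) and in the mean over its probe sets (0.12, adjusted p = 0.62). Below the receptor, Grb10, an adaptor that inhibits Igf1r and the insulin receptor, was 1.74 ± 0.11 higher in amygdala than in hippocampus, with 366 ± 30.7 against 99.4 ± 19.0. Grb10 was also 0.44 ± 0.11 higher in amygdala than in cortex and lower in hippocampus than in cortex (-1.30 ± 0.11, and -0.72 in the mean over its probe sets). Its relative Grb14 was lower in amygdala than in cortex (-0.63 ± 0.09) and hippocampus (-0.56 ± 0.09), Tsc2 was higher in amygdala than in cortex (0.32 ± 0.08), and Foxo1 was lower in amygdala than in hippocampus (-0.47 ± 0.12, and -0.74 in the mean over its probe sets).

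The probe sets most like Gh1 were taken by Pearson correlation of log2 values over the 18 arrays, among 13997 named probe sets past the filter. The 6 most alike were Rasd2 (r = 0.90), Gamt (r = 0.89), Map4k4 (r = 0.88), Adra2c (r = 0.86), Klhl5 (r = 0.85) and Cfap144 (r = 0.85). Rasd2, a striatum-enriched small GTPase, read 603, 617 and 595 on the handled and 612, 661 and 685 on the stressed amygdala arrays, and 566, 532 and 512 on the handled and 412, 476 and 452 on the stressed hippocampus arrays. Its amygdala groups overlapped and its hippocampus groups did not, where 6.72% of all probe sets had all stress arrays lower. Gamt, the creatine-synthesis enzyme guanidinoacetate methyltransferase, read 251, 260 and 252 and then 276, 276 and 273 in the amygdala. That was a narrow shift without overlap, an order that 7.46% of all probe sets showed there. All 6 genes had a stress change above 0 in amygdala and below 0 in hippocampus, as the ranking favours, and none of these changes was called. Their sizes were at most 0.29 in amygdala and 0.42 in hippocampus, smaller than those of Gh1. The most opposite were D430041D05Rikl (r = -0.91), Kcnc2 (r = -0.87), Syt4 (r = -0.86), Dusp7 (r = -0.85), Reln (r = -0.84) and Lgalsl (r = -0.84). Of the 12 only Reln, which encodes the extracellular protein reelin, was called in a regional stress contrast. That was in the amygdala (-0.47 ± 0.07), where 2.4% of probe sets were called. The choice by opposition to Gh1 favours this direction, so no p is given. The arrays of a group share region and treatment, and once group means were removed the 6 most alike correlated with Gh1 at 0.18 to 0.67. Of the 6, between 3 and 6 stayed among the most alike under the other settings.

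**Figure D5:**
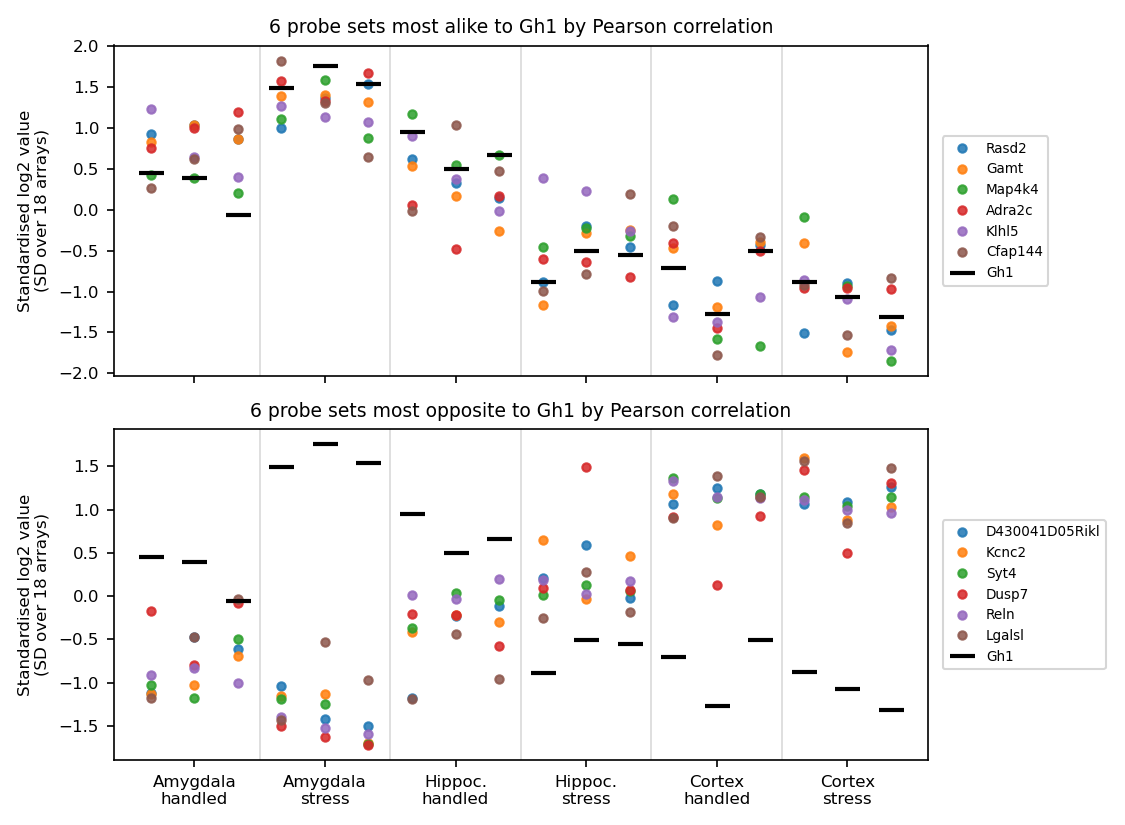
Log2 values of Gh1 (black bars) and of the 6 probe sets most alike (upper panel) and most opposite to it (lower panel), each standardised to its mean and SD over the 18 arrays (y axis), with arrays in their 6 groups along the x axis. In the upper panel the stressed amygdala is high and the cortex low, and in the lower panel the 6 probe sets run the other way from Gh1.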

How the data were processed

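Per the labels, total RNA of 3 regions of stressed and handled rats was measured on 18 arrays. The deposited values are intensities, 1 per probe set and array. Their mean after trimming each tail was 150.04 or 150.05 on every array, so they had been scaled to a common mean. The summarising software is not given in the sources used here. Of 31099 probe sets, 20832 had 1 gene symbol, 436 several and 9831 none. For 20764 probe sets the symbol was taken from the rat RefSeq table (GRCr8) through the Entrez number. The 57 control probe sets were left out. Values were taken as log2(intensity + 16), which shrinks changes of dim probe sets. Probe sets whose mean log2 value fell under the 40th percentile were dropped. A model with 6 group means covered all 18 arrays (limma 3.58.1, R 4.3.3; 12 residual degrees of freedom, variance trend), with two-sided tests and Benjamini-Hochberg adjustment. No normalization was added.

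The members, the gene and marker lists and the rules were chosen with earlier results of these data known. Named were all members, pathway genes called in a stress contrast, up to 5 per direction for each handled contrast, and the 6 probe sets most like and most opposite to Gh1. Other genes, named from the lists as examples or markers, were picked after their values were seen. A gene stands for its probe set of highest mean. Tested on simulated data for stress in cortex (18625 probe sets, 200 changed), the fit recovered 86 of 100 changes of 1 and 41 of 100 of 0.5 on the log2 scale, with 4 false calls. The number of arrays limits the precision. Same-numbered handled and stress arrays of a region did not deviate together (9 correlations of -0.03 to 0.01). Same-numbered arrays of different regions were not compared in this way, so it cannot show whether regions share animals. Numbers were not used as pairs in the main fit. Alternatives were other offsets, filters and normalizations, no variance trend, the arrays of a contrast alone, the mean of a gene's probe sets, a replicate block and leaving out each array.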

Additional observations from a re-analysis of the deposited data

Results flagged for a closer look

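The Gh1 effects of stress in amygdala and hippocampus lay 2.16 apart on the log2 scale, with every stress array above every handled array in the amygdala and below it in the hippocampus. This difference was not tested, since Gh1 was picked for it. The stress effect on Igf2 differed between amygdala and cortex by 1.5 and between hippocampus and cortex by 1.69, and that on Igfbp2 by 1.05 and 1.48, each past the threshold in limma's test of the difference itself. All 4 differences share the stressed and handled cortex arrays, in which meningeal markers differed as well.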

How the results depend on the processing

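The Gh1 differences kept their sign in amygdala, hippocampus and cortex in all 28 alternatives that measured the probe set, and Gh1 lay below a filter at the 60th percentile. In amygdala and hippocampus Gh1 was picked for that sign, and its handled and stress arrays did not overlap. Leaving out an array could therefore not turn it, and nothing is read from the kept signs there. The offset set the size of the Gh1 differences: the amygdala value was 0.81 with an offset of 64, and the hippocampus value was -1.30 with an offset of 1 and -0.72 with 64. Without a filter 1 member other than Gh1 (Socs2) was called in each of the hippocampus stress contrast, the averaged stress contrast and handled amygdala against hippocampus. With the mean of a gene's probe sets 0 such members were called for handled hippocampus against cortex, and leaving out 1 array gave 0 to 2. Pathway genes called with stress in amygdala numbered 0 with no filter, median centring, no variance trend or gene means, and 0 to 1 with 1 array left out. Gene means gave 1 in cortex, 2 averaged, 1 for the amygdala minus cortex and 1 for the hippocampus minus cortex difference; the mean of Igf2's 4 probe sets fell below the filter there. Single-gene calls that were lost or gained in an alternative are given beside their genes above. Of 39 uncalled values 19 changed sign in at least 1 setting. With the replicate number as a block the Gh1 values stayed at 1.07 and -1.09, 421 probe sets were called in amygdala, 61 in hippocampus and 54 in cortex against 447, 67 and 75, and no member's call changed. Over all alternatives these counts ran from 104 to 536, 20 to 119 and 34 to 560. Median centring turned the split of higher and lower calls from 19 and 48 to 25 and 25 in hippocampus, from 1516 and 1222 to 1093 and 1687 in handled amygdala against cortex, and from 2895 and 2394 to 2405 and 2781 against hippocampus. Ghr, Socs2 and 1 Igf1 probe set lay near the floor, where small changes could not be seen.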

Other observations

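Genes beside Gh1 in the rat RefSeq table (GRCr8) were read as a description. Of the 5 protein-coding genes on each side, 8 had a named probe set. Psmc5, a proteasome subunit, was bright and nearly level, with 1371 handled and 1406 stressed in amygdala and 1215 and 1223 in hippocampus. Ddx42 changed by 0.10 and 0.12, and Ftsj3 by -0.05 and 0.02. Smarcd2, a chromatin-remodelling subunit, changed by -0.15 ± 0.20 in amygdala and 0.09 ± 0.20 in hippocampus, and Icam2 by -0.32 ± 0.25 and -0.15 ± 0.25. The 2 nearest neighbours, Tcam1 and Cd79b, lay below the filter, between 1.06 and 26.3 and between 1.12 and 15.9 on all arrays.

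Haemoglobin beta (Hbb) was lower on all stress arrays than on all handled arrays in each of the 3 regions, and it was called lower in each. All stress arrays were lower for 6.8% of all probe sets in amygdala and 6.72% in hippocampus, a share not counted in cortex. In amygdala, hippocampus and cortex 2.4%, 0.36% and 0.403% of probe sets were called. Summed microglial markers, a cell type known to make Igf1, overlapped between treatments in each region, at 1504 to 1524 and 1452 to 1543 in amygdala.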
